A study of Caenorhabditis elegans with 2 samples.

Results

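The mir-35 family of Caenorhabditis elegans consists of 8 microRNA precursor genes, cel-mir-35, cel-mir-36, cel-mir-37, cel-mir-38, cel-mir-39, cel-mir-40, cel-mir-41 and cel-mir-42, out of 261 microRNA genes in the annotation. The family was chosen from measured values of these data, namely the rank and signal of chromatin immunoprecipitation (ChIP) regions near the precursors. Its presence among the peaks is therefore a description and carries no test. Regions were taken where the summit, the position of highest enrichment, lay within 1000 bp of a precursor. By that rule the family took 3 regions of the optimal list, 4 of the pooled list, 5 of replicate 1 and 4 of replicate 2.

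The ChIP was directed at B0310.2, assayed as a transcription factor per the labels, in early embryos collected 0 h after egg bleaching, a treatment that kills worms and spares their eggs. There was a single group of 2 biological replicates and no other condition. All embryos were of strain OP642, which carries the mutation unc-119 (tm4063) III and the transgene wgIs642, and were of mixed sex and unknown age. The transgene fuses GFP and FLAG tags to the C terminus of B0310.2, and the precipitation used an antibody to GFP per the samples' descriptions, while the antibody field of the labels names B0310.2. The labels do not name the promoter that drives the fusion or say whether the endogenous gene was intact, and the whole embryo was used, so a region can come from any of its cells. Regions were called against a control alignment. The assay measures binding and not RNA, so the embryonic expression of the family was not examined here.

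MicroRNAs are short RNAs cut from hairpin precursors and loaded into Argonaute proteins, which they guide to matching sites in messenger RNAs, mostly through the bases near their 5′ end called the seed. In C. elegans the mir-35 family is made from the germline and early embryo onward, is needed for embryonic development and is cleared as embryogenesis ends. Members act redundantly, because they share the seed.

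The mature 3p arms are shown because the shared seed is what makes these genes a family. The sequences are from RefSeq (assembly WBcel235), written 5′ to 3′ as RNA, with the seed, bases 2 to 8, in capitals.
cel-mir-35-3p: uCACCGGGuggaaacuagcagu
cel-mir-36-3p: uCACCGGGugaaaauucgcaug
cel-mir-37-3p: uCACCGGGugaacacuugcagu
cel-mir-38-3p: uCACCGGGagaaaaacuggagu
cel-mir-39-3p: uCACCGGGuguaaaucagcuug
cel-mir-40-3p: uCACCGGGuguacaucagcuaa
cel-mir-41-3p: uCACCGGGugaaaaaucaccua
cel-mir-42-3p: uCACCGGGuuaacaucuacaga
All 8 arms are 22 nt long and have the same seed. Of 458 mature arms annotated in RefSeq, 8 carry this seed, and they belong to the 8 members. Outside the seed the arms diverge. Over their whole length, shared seed included, pairs of 3p arms were 59.1% to 86.4% identical, with a median of 70.5% over 28 pairs. Pairs of precursors were 46.3% to 68.0% identical. The 5p arms of the 8 precursors have 8 different seeds.

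The 4 summits at the family are shown as windows reaching 50 bp to each side, read from the plus strand of WBcel235 (the sequence of build ce11). Capitals mark bases of mature arms, except in the window upstream of mir-42, which holds none and where the capital is the summit base.
mir-36 summit, chrII:11537702-11537802: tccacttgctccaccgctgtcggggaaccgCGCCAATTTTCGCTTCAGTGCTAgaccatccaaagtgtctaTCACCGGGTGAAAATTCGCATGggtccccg
mir-38 summit, chrII:11537905-11538005: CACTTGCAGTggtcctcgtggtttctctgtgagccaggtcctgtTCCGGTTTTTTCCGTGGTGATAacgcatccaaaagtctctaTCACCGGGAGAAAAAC
mir-42 upstream summit, chrII:11889619-11889719: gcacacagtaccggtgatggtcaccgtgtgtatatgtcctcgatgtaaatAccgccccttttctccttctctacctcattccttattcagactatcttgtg
mir-42 inside summit, chrII:11889819-11889919: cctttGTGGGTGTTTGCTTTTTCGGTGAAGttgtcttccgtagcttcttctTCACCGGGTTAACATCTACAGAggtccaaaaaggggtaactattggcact
The windows at mir-36 and inside mir-42 hold both arms of their hairpin. The window at mir-38 holds its 5p arm, most of its 3p arm and the end of the mir-37 3p arm.

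The members lie in 2 clusters on the plus strand of chromosome II. The first, chrII:11537608-11538404, packs cel-mir-35 to cel-mir-41 into 797 bp, with 2 to 61 bp between neighbours. All 7 precursors sit within introns of Y62F5A.9, a protein-coding gene on the opposite strand. The second, chrII:11889811-11890118, starts 351406 bp beyond the first and holds cel-mir-42 with cel-mir-43 and cel-mir-44 in 308 bp, with no protein-coding host. The mir-43 and mir-44 3p arms have other seeds and are not members.

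All 8 members had a peak of the optimal list within 1000 bp, where 25 of 261 microRNA genes did (9.58%). The 642 optimal regions are those that met the authors' threshold on the irreproducible discovery rate, which scores how alike replicates rank regions, and they equal the 642 strongest regions of the pooled list. Because the rule used this measure, the share is not a result about the family. The 8 members are not 8 separate observations either. The 7 members of the first cluster share 1 optimal peak, and cel-mir-42 has 2. Within 200 bp of a summit, 5 of 8 members remained, against 16 of 261 microRNA genes (6.13%).

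At the first cluster, the signal (the authors' enrichment value, on a scale the sources do not state) was 258.561 in the pooled list, 67.5947 in replicate 1 and 199.983 in replicate 2. Since the scale is unstated, only ranks and ratios within a list are compared. The peak ranked 149 in the pooled and the optimal list, 243 in replicate 1 and 126 in replicate 2, each list except the optimal one holding 30000 regions. Relative to the region ranked 642 in the same list, its signal was 1.85 times as high in the pooled list, 1.38 times in replicate 1 and 1.99 times in replicate 2. Both replicates thus put it among their strongest regions, replicate 2 higher than replicate 1.

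This peak, chrII:11537637-11537843, had its summit 144 bp from the cluster start, inside cel-mir-36 and within the stretch of its 5p arm. In replicate 1 the summit was at 142 bp, also in the 5p arm, and in replicate 2 at 176 bp, in the 3p arm. The replicate summits were 34 bp apart, and both lay inside the same hairpin. The authors' −log10 q was 2.46588, the highest value in the pooled list and shared by 439 of its regions.

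A second summit lay further into the cluster. In the pooled list it was at 347 bp, inside cel-mir-38, with a signal of 135.737 and rank 702, so it fell just outside the optimal list, whose weakest region had a signal of 139.602. In replicate 2 it was at 387 bp, again inside cel-mir-38, with a signal of 109.053 and rank 511. Replicate 1 listed no second summit inside the cluster, and its other region by the rule lay 800 bp before the cluster start at rank 22053, with a signal of 18.4946. The replicate 1 region with its summit in cel-mir-36, chrII:11537510-11537989, nevertheless spans the position of the pooled second summit.

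**Figure D1:**
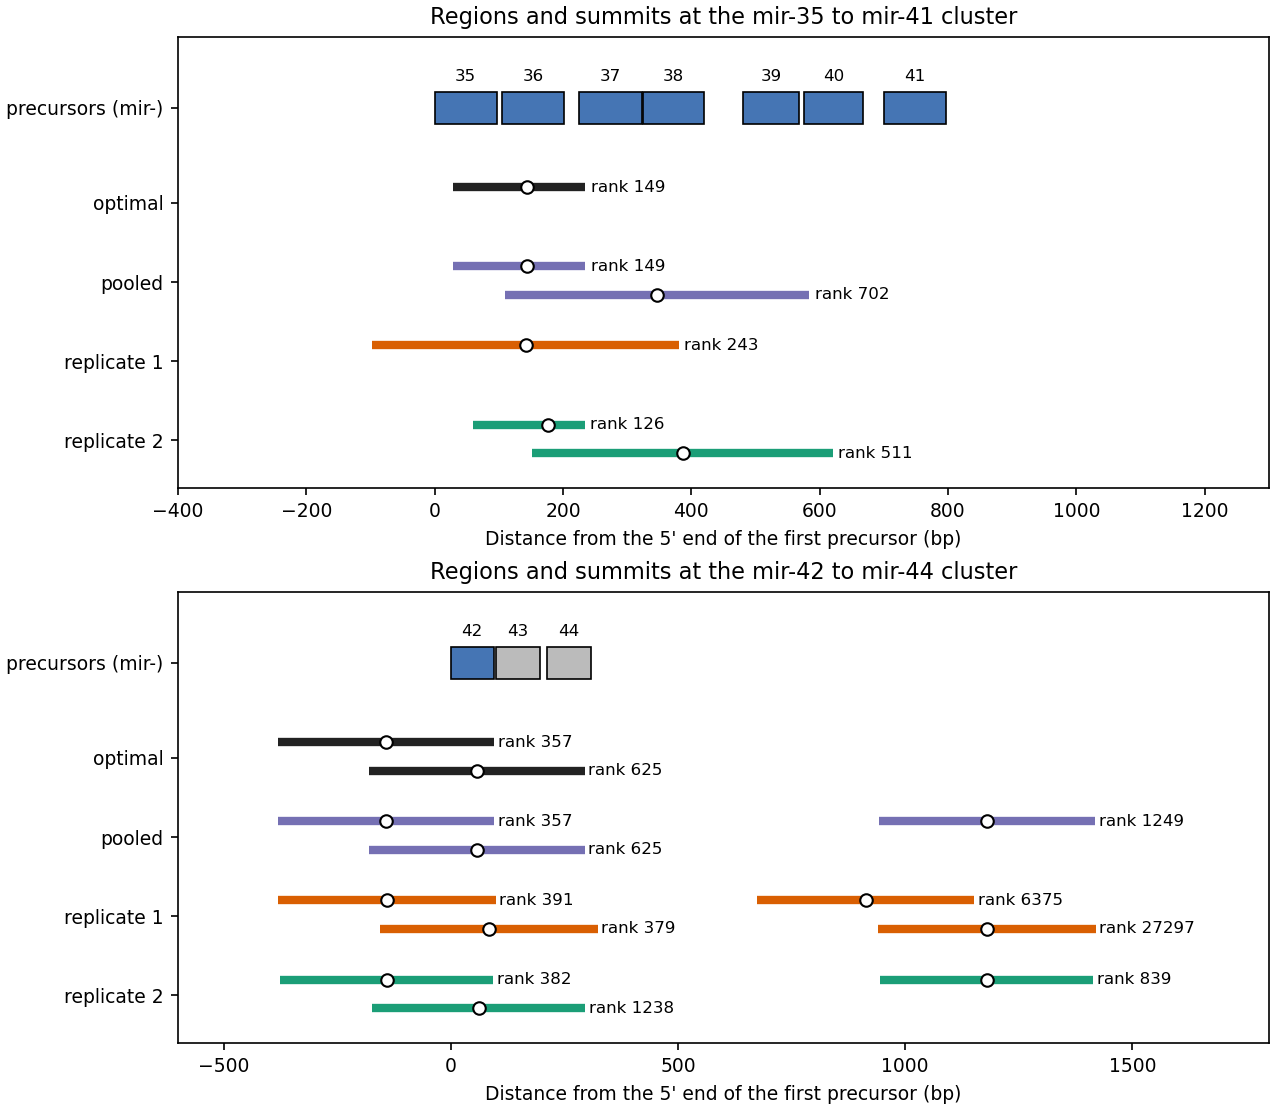
Regions (bars) and summits (open circles) of the 4 lists at both clusters, with the rank within the list, against the distance in bp from the 5′ end of the first precursor. Family precursors are blue and mir-43 and mir-44 grey, and the weak replicate 1 region 800 bp before the first cluster is outside the plot. In every list the strongest region of the first cluster has its summit in mir-36, and the second cluster has 1 summit before and 1 inside mir-42.

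Coverage of the precursors by regions fell off toward the 3′ end of the first cluster. The optimal peak covered 70.1% of cel-mir-35, all of cel-mir-36 and 11.2% of cel-mir-37, and none of the other 4. Adding the second summit, the pooled regions covered all of cel-mir-36 to cel-mir-39 and 9.78% of cel-mir-40. cel-mir-41 lay outside every region in all 4 lists. Replicate 1 covered cel-mir-35 to cel-mir-37 completely and 60% of cel-mir-38, and nothing beyond. Replicate 2 covered 38.1% of cel-mir-35, all of cel-mir-36 to cel-mir-39 and 50% of cel-mir-40.

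cel-mir-38, cel-mir-39, cel-mir-40 and cel-mir-41 therefore counted as having an optimal peak only through the distance rule. From the optimal summit the distance was 0 bp to cel-mir-36, 48 bp to cel-mir-35, 81 bp to cel-mir-37 and 181 bp to cel-mir-38. It was 337 bp to cel-mir-39, 432 bp to cel-mir-40 and 556 bp to cel-mir-41. Widths are partly set by the authors' method, since most pooled regions were 476 bp wide and the mir-36 peak was 207 bp.

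**Figure D2:**
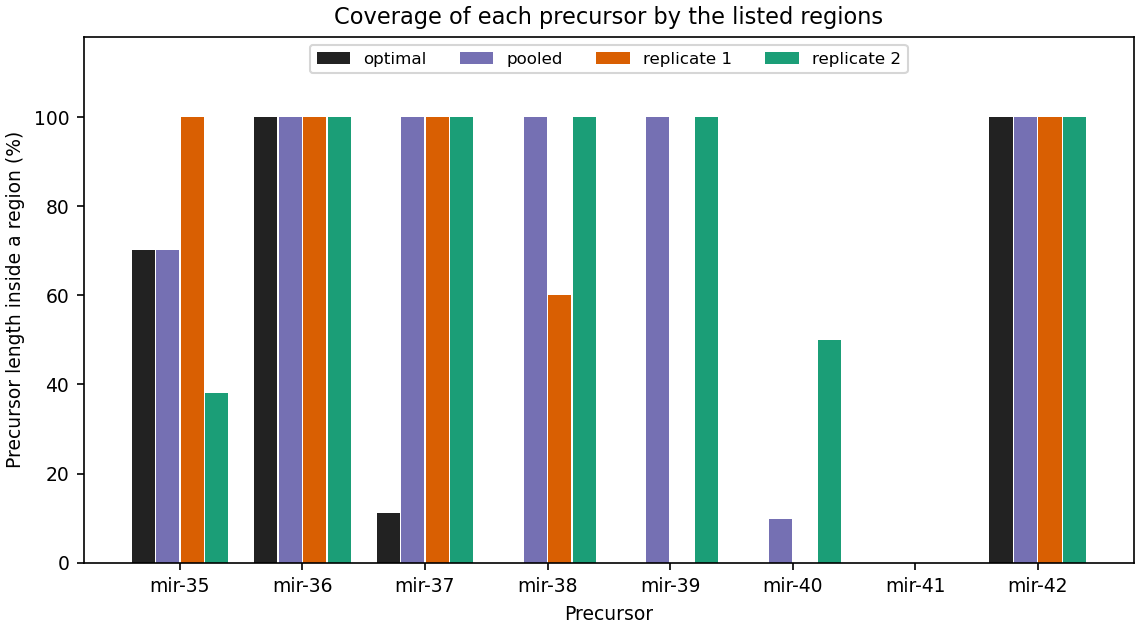
Percent of each precursor's length that lies inside a listed region, with 1 bar for each list. mir-36 and mir-42 are covered completely in all 4 lists, and mir-41 in none. Only in the pooled and replicate 2 lists is mir-39 covered, completely, and mir-40 covered, in part (9.78% and 50%).

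The second cluster had 2 optimal peaks at cel-mir-42. The stronger, chrII:11889431-11889906, had its summit 142 bp before the precursor, in unannotated sequence, with a signal of 176.265 and rank 357 in the pooled list. In replicate 1 this summit was at 140 bp before the precursor with a signal of 56.5098 and rank 391, and in replicate 2 at 141 bp before it with a signal of 120.376 and rank 382. The replicate summits were 1 bp apart and their ranks were close. This was the most closely placed of the family's summits between replicates.

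The other peak, chrII:11889631-11890106, had its summit 58 bp into cel-mir-42, between the arms and next to the first base of the 3p arm. Its pooled signal was 140.949 and its rank 625 of 642, just inside the optimal list. In replicate 1 it was at 84 bp with a signal of 57.0551 and rank 379, and in replicate 2 at 62 bp with a signal of 80.8769 and rank 1238, below the size of the optimal list. The replicates therefore differed on which summit was stronger. The upstream signal was 1.25 times the inside signal in the pooled list, 0.990 times in replicate 1 and 1.49 times in replicate 2.

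Of the region just outside the distance limit, the pooled summit lay 1087 bp from cel-mir-42, with a signal of 111.682 and rank 1249. The replicates placed it at ranks 27297 and 839. In replicate 1 a further region by the rule lay 913 bp from the cluster start, with a signal of 28.4311 and rank 6375.

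Paired summits at both clusters were spaced near the smallest distance that the lists hold. The spacing at mir-42 was 200 bp in the pooled list, 224 bp in replicate 1 and 203 bp in replicate 2, and in the first cluster 203 bp in the pooled list and 211 bp in replicate 2. The smallest spacing between summits anywhere was 199 bp in every list. Whether each pair reflects separate sites or 1 broader enrichment divided by the method was not tested.

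Between the clusters, the strongest region of the first had a higher signal than that of the second in all lists. The ratio was 1.47 in the pooled list, 1.18 in replicate 1 and 1.66 in replicate 2. With 2 replicates of 1 group no test of this difference was made.

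**Figure D3:**
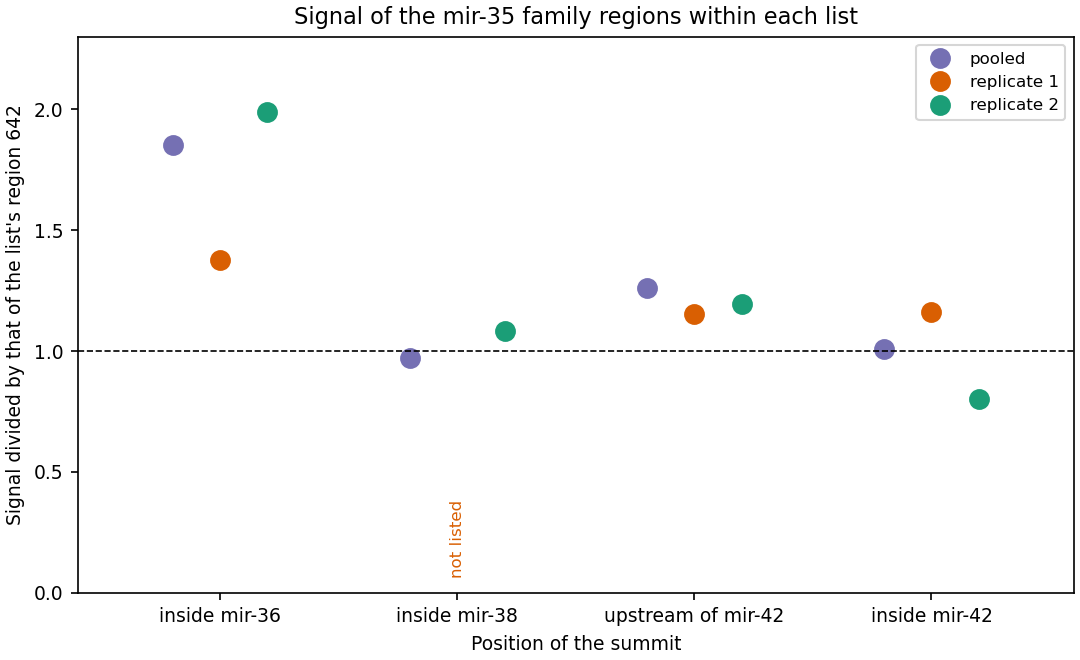
Signal of the 4 summits divided by the signal of the region ranked 642 in the same list (dashed line at 1), for the pooled list and both replicates. The mir-36 summit is above the line in all 3 (1.38 to 1.99), the upstream mir-42 summit too (1.15 to 1.26), the inside mir-42 summit runs from 0.804 to 1.16, highest in replicate 1, and the mir-38 summit is at 0.972 and 1.08 and not listed in replicate 1.

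The annotation around the summits differed between the clusters. The mir-36 summit lay in an intron of Y62F5A.9, 1089 bp downstream of that gene's 5′ end, and the mir-38 summit 886 bp downstream of it. Short noncoding RNA genes of unknown function lay close by. Y62F5A.14 was 53 bp from the mir-36 summit, Y62F5A.16 was 123 bp from it and Y62F5A.15 was 276 bp from it. dhgd-1, a protein-coding gene, was 940 bp from the mir-38 summit. At the second cluster, the noncoding gene ZK930.12 overlaps cel-mir-42 on the opposite strand and contained the inside summit, and the snoRNA gene ZK930.15 was 585 bp from it. None of the 4 summits lay in a protein-coding promoter, taken as 1000 bp upstream to 300 bp downstream of a transcript's 5′ end, or within 200 bp of a tRNA, snoRNA or snRNA gene.

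The same held for promoters at the other microRNA loci with peaks. Precursors within 2000 bp of each other on the same strand were joined into 222 loci, of which 13 had an optimal peak through 12 distinct strongest peaks. In 0 of the 13 did that summit lie in a protein-coding promoter, where 298 of the 642 optimal summits did (46.4%). In 1 of the 13, the mir-1018 locus, a tRNA, snoRNA or snRNA gene lay within 200 bp of the summit. That locus had its peak through mir-4923a and mir-4921, and mir-1018 itself had none. The first mir-35 family cluster has the most precursors of any locus. Of 22 loci with at least 2 precursors, 7 had an optimal peak. These 7 include both family clusters, which were chosen from these lists. A longer locus also offers more room for a summit within the distance, so nothing is read from this count.

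The replicates were also read singly. Among the 642 strongest regions of replicate 1, 27 of 261 microRNA genes had a summit within 1000 bp (10.3%), and in replicate 2 also 27 (10.3%). All 8 members were among them in each replicate. All 13 loci with an optimal peak were within the first 642 ranks of both replicates. The optimal list was itself made from both replicates and equals the strongest pooled regions, so nothing is read from this count. The median pooled rank of the 136 loci that had any region was 9978.5.

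**Figure D4:**
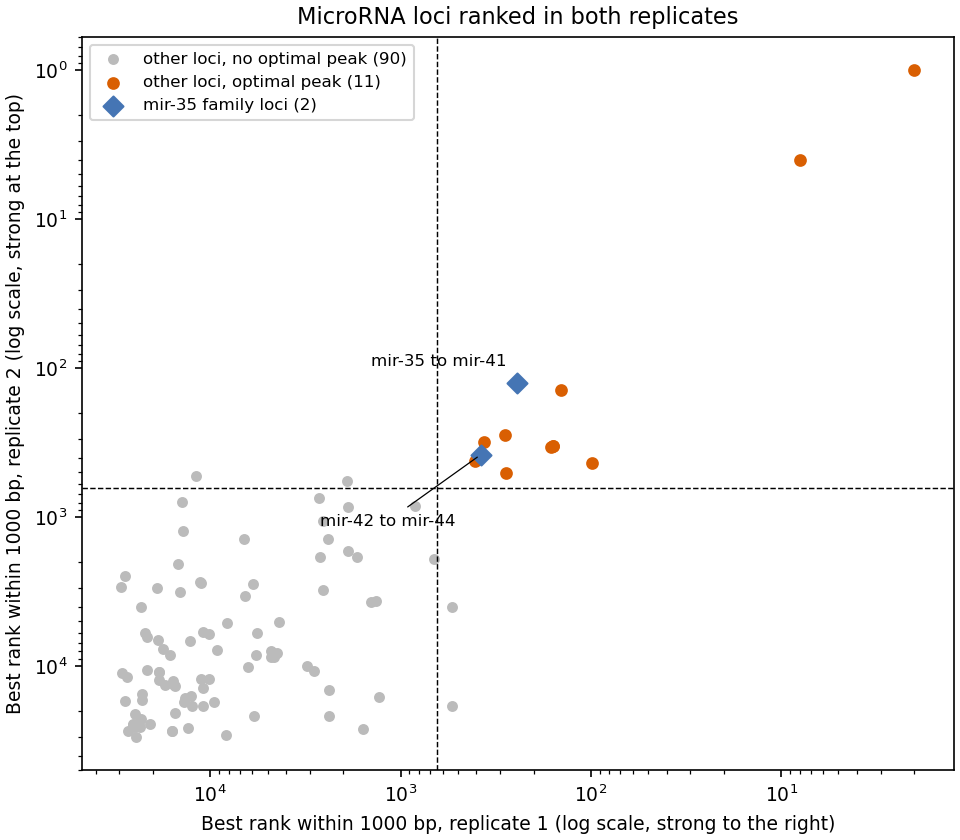
Best rank within 1000 bp in replicate 1 against replicate 2, both on log axes with strong regions to the right and top, for the 103 microRNA loci ranked in both. Dashed lines mark rank 642. Both family clusters (blue diamonds) lie in the upper right corner with the other 11 loci that have optimal peaks.

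In the order of pooled ranks the first cluster came 4th among microRNA loci and the second 11th. The 3 loci above the first cluster were mir-52 at rank 1, with a signal of 1118.34, the mir-51 locus at rank 4, with a signal of 842.085, and mir-58a at rank 142, with a signal of 267.438. The 3 below it were mir-62 at rank 247, mir-90 at rank 259 and the mir-80 locus at rank 270. The first cluster and mir-58a were close in pooled rank but differed in how the replicates placed them, at 243 and 126 against 144 and 141. The spread of the first cluster between replicates, from 126 to 243, takes in the pooled rank of mir-58a.

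Around the second cluster, the loci above were the mir-54 to mir-56 locus with mir-55b on the opposite strand, which share a peak at rank 280, and the mir-1018 locus at rank 292. Below it were the mir-86 locus at rank 435, mir-2211 at rank 454 and mir-87 at rank 676, outside the optimal list. The best ranks of the second cluster, 379 in replicate 1 and 382 in replicate 2, belong to different summits. Summit by summit the ranks were 391 and 382 upstream of cel-mir-42 and 379 and 1238 inside it. mir-86 ranked 278 and 509, mir-2211 405 and 422, and mir-87 1902 and 571.

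Other microRNA families with roles in development were read with the same rule. In the mir-51 family, a broadly expressed embryonic family, 5 of 6 genes had an optimal peak, all but mir-53. Of these, mir-54, mir-55 and mir-56 share the same peak, at rank 280, so the 5 genes are not separate observations. Within 200 bp of a summit, 4 of the 6 genes remained. In the list used for the bantam family, which shares its seed with Drosophila bantam, 2 of 7 matched genes had one, mir-58a and mir-80. The annotated genes mir-58b and mir-58c were not in that list and had no optimal peak. In the let-7 family, which times larval development, 0 of 4 did. Their best pooled rank was 4771, at mir-241, which ranked 536 in replicate 1 and 18692 in replicate 2. For lin-4 and mir-237, likewise regulators of larval timing, the count was 0 of 2. Each count stands beside the 9.58% for all microRNA genes, and no difference between families was tested. That share includes the 8 chosen members. Of the 253 other microRNA genes, 17 had an optimal peak.

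Genes that make microRNAs or act with them were read at their promoters, where 371 of 19973 protein-coding genes had an optimal summit (1.86%). The 11 listed genes were chosen with earlier results of these data known, so their count is a description only. Of them, 3 had an optimal promoter summit. They were alg-5 at rank 193, ain-1 at rank 331 and alg-1 at rank 381, of which alg-1 and alg-5 encode Argonautes and ain-1 a GW182-type partner of Argonaute. In replicates 1 and 2 the ranks were 268 and 209 for alg-5, 178 and 410 for ain-1, and 791 and 376 for alg-1. The alg-5 summit also lay in the promoters of the histone genes his-67 and his-68, so the peak cannot be assigned to alg-5 alone. The other 8 genes had no optimal promoter peak. They were drsh-1, pash-1 and dcr-1 (the processing enzymes Drosha and Dicer and a partner of Drosha), alg-2, ain-2, xrn-1, xrn-2 and ebax-1, the last encoding a factor in the decay of the family. alg-2, the close relative of alg-1, had its best promoter region at pooled rank 1147.

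Of 4 listed targets of the family, 2 had an optimal promoter peak, beside the 1.86% of all protein-coding genes. This list too was chosen with earlier results of these data known, so the count is a description only. sup-26, which encodes an RNA-binding protein, ranked 373 in the pooled list, 532 in replicate 1 and 408 in replicate 2. nhl-2, which encodes a TRIM-NHL protein that acts with the microRNA machinery, ranked 517, and its replicate ranks of 2009 and 443 were far apart. Its summit also lay in the promoter of tag-340. The best promoter region of egl-1, the BH3-only activator of cell death, was at pooled rank 9906, and lin-23, which encodes an F-box protein, had none.

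The complement of the family's seed, CCCGGTG, occurs in the annotated 3′ untranslated region of 58 of 16794 genes (0.345%), among them egl-1, sup-26 and nhl-2. The annotated 3′ untranslated region of lin-23, the other listed target, does not hold these letters. These sites are shown because they pair with the seed printed above. Each is given on its gene's own minus strand, with the 7 letters in capitals.
egl-1, chrV:14431423-14431429: gatttctcataataCCCGGTGt
sup-26, chrIII:4276468-4276474: ttctcctttcctcgCCCGGTGa
nhl-2, chrIII:4895035-4895041: gcctttttgttgtcCCCGGTGt
The list was made from genes already reported as targets, so the presence of the site is no finding. In sup-26 and nhl-2, both a seed site and a promoter peak were present. The coordinates are those of the capitals.

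The sequence at the summits was compared with that of the other optimal peaks. The mir-36 window was 56.4% G and C, the mir-38 window 50.5%, the upstream mir-42 window 46.5% and the inside mir-42 window 45.5%. The median over the 642 optimal windows was 49.5%, so the mir-36 window stood in the upper part of the range, at the 80.2 percentile, and the 2 mir-42 windows in the lower part, at 31.3 and 26.8.

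A set of 5 strings of 6 letters, taken because they were frequent at these same peaks, was searched on both strands. The first was AGAGCG, found in 14.5% of the 642 optimal windows of 101 bp. The second, GCGCGC, was found in 9.50% of them and the third, AGCGCG, which can overlap it, also in 9.50%. The fourth, CGAACC, was found in 14.8% and the fifth, GAACCC, which can overlap the fourth, in 12.3%. None of the 5 was found in any of the 4 windows of 101 bp or in the wider windows of 201 bp. Over the 642 optimal windows of 201 bp, the 5 strings were found in 21.8%, 12.6%, 14.6%, 22.6% and 19.0%, in the order above. At least 1 of them was found in 251 of the 642 optimal windows of 101 bp (39.1%). The letters of the family's seed, CACCGGG, or their complement were found in 8 of the 642 windows (1.25%), and 2 of the 8 are the family's own windows at mir-36 and inside mir-42, which hold the mature arms.

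Reads from related hairpins could in principle be placed at the wrong member. In both clusters and the 500 bp on each side, every stretch of 36 bases and of 50 bases was looked up. Each occurs once, as an exact match, on chromosomes I to V and X of WBcel235. Placements that allow mismatches were not examined, so misplaced reads between similar hairpins were not tested. How long the reads were, and how reads with several placements were handled, is not given in the sources used here.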

How the data were processed

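Peak lists of B0310.2-GFP ChIP in C. elegans early embryos (2 replicates, 1 group) were analysed for build ce11, and lists of other builds were not used here. Each region carries a signal value, a −log10 q value and a summit, all the authors' own per the deposited descriptions of the format. The authors called regions for each replicate and for pooled replicates against a control, and an irreproducible discovery rate threshold gave the optimal list. Neither caller, aligner and versions nor that threshold is given in the sources used here. The lists hold no read counts, so depth is unknown and no interval is given.

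Regions were ranked by signal within a list and joined to Ensembl release 115 precursor genes by summit distance (1000 bp) with Python 3.11.15 and pandas 2.3.3. Mature arms came from RefSeq. cel-let-7 was matched by gene ID, and cel-mir-1834 is not analysed here. Coordinates are 1-based. Named genes were all members, their cluster neighbours, genes near the summits, 4 other families, the 3 nearest loci in rank on each side and the listed pathway and target genes. Members and lists were chosen with earlier results of these data known. Alternatives were other distances, overlap, single replicates, stronger peaks and wider windows. The join was tested on simulated data.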

Additional observations from a re-analysis of the deposited data

How the results depend on the processing

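The count of members with an optimal peak was 8 of 8. It fell to 5 with a summit within 200 bp and to 4 when the peak had to overlap the precursor, was 7 within 500 bp or with the stronger 321 peaks, and stayed at 8 within 2000 bp. The share of all microRNA genes, 9.58%, was 6.13% within 200 bp, 6.13% by overlap, 8.05% within 500 bp, 7.28% with the stronger peaks and 14.2% within 2000 bp. With 1 replicate left out, the count of members was 8 and 8, and the share 10.3% and 10.3%. The rank of the first cluster then ran from 126 to 243 and that of mir-42 from 379 to 382. The offset of the strongest summit ran from 142 to 176 bp in the first cluster and from -141 to 84 bp at mir-42, where replicate 1 alone put the inside summit first. None of the 5 strings appeared at the strongest summit of either cluster in either replicate, or in the wider windows at the pooled summits. The weaker replicate summits were not searched. Depth is unknown, and no test across the 2 replicates was made.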
